A study of Mus musculus with 21 samples.

Results

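Glast+ cells and Notch1+ cells taken from mouse retinas on postnatal day 7 (P7) were compared gene by gene. The members were chosen by the sample titles alone: 2 Glast+ P7 arrays and 3 Notch1+ P7 arrays, 5 of the 21 arrays of the series. All cells came from retinas of the strain C57BL/6. Per the labels, Glast+ P7 cells were captured on magnetic microbeads through a biotin-conjugated antibody against Glast (the glutamate transporter Slc1a3), and Notch1+ P7 cells in the same way through an antibody against the receptor Notch1. The submitters class the Glast+ cells of this age as precursors of Müller glia and the Notch1+ cells as retinal progenitor cells. The labels describe 2 to 3 independent biological replicates at each age. A bead capture enriches cells that carry a surface protein and does not exclude others, so both groups are enriched populations rather than 1 cell type. The other Notch1+ ages (P0, P3 and P14) and Glast+ ages (P14, P21 and P28) enter here only through the shared estimate of the spread, and the P14 arrays, 3 of each sort, through a comparison at the end.

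Around the end of the first postnatal week of the mouse, the last retinal progenitors leave the cell cycle and Müller glia, the principal glial cells of the retina, take on their mature form. Slc1a3 clears glutamate from the extracellular space and is carried by radial and Müller glia and by progenitors. Notch1 is cut after it binds a ligand on a neighbouring cell. Its freed intracellular domain then joins the DNA-binding protein RBPJ and a Mastermind coactivator to switch on repressors of the Hes and Hey families, which hold back neuronal differentiation and favour the glial fate. Endothelial cells, which line the retinal vessels growing in at this age, also carry Notch receptors, and microglia are the resident macrophages of the retina.

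Each array gave an intensity for 34312 probes against mouse transcripts. The scanning software found 68.5% and 69.4% of them on the Glast+ P7 arrays, against 60.9%, 73.9% and 61.8% on the Notch1+ P7 arrays. Probes at or below their local background made up 0.997% and 1.22% on the Glast+ P7 arrays, against 28.22%, 20.7% and 26.2% on the Notch1+ P7 arrays, and the saturated probes numbered 15 and 18 against 132, 42 and 148. All Glast+ arrays of the series were scanned on scan day 3, Notch1+ array 2 of this age on scan day 1, and Notch1+ arrays 1 and 3 on scan day 2. Every difference below is therefore one of sort and of scan day, which cannot be told apart. Across genes, which are not independent replicates, the 2 Glast+ P7 arrays correlated at r = 0.988, the Notch1+ P7 arrays at 0.969 to 0.982, and arrays of different sorts at 0.940 to 0.958. Only 2 and 3 arrays stand behind each pair of means, which limits the precision.

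Between the sorts at P7, 1554 of 12601 genes tested (12.3%) were called, that is, had an adjusted p under 0.05 in limma (Benjamini-Hochberg over all genes tested): 857 were higher in Glast+ P7 cells (6.8%) and 697 were lower (5.53%). The steepest differences were on the low side. Called genes with at least a 4-fold difference numbered 65 higher and 136 lower, and at least 16-fold 0 higher and 25 lower. Of those 25 genes, 14 belonged to the list of vascular endothelial genes, and of the 136 genes lower by at least 4-fold, 28 did. That list holds 39 of the 12601 genes tested. Of the 65 genes higher by at least 4-fold, 8 were on the microglial list (29 genes tested) and 4 on the Notch pathway list (42). The gliosis list (35) also held 4 of them and the immediate-early and stress list (43) held 3. Some genes are on more than 1 list. Over all genes, the median difference was 0.01 (log2), and 5% of genes lay below -1.08 and 5% above 0.97. On the arrays, 3263 genes (25.9%) had both Glast+ P7 values above all Notch1+ P7 values and 2574 (20.4%) had both below. Among the called genes the values were apart in this way for 857 of 857 higher and 695 of 697 lower ones. The balance of the 2 directions depended on the scaling. With median scaling, which moved the median of all genes to -0.13, 310 genes were higher and 933 lower, and in the authors' own values, where that median was 0.26, 1631 were higher and 532 lower. Calls were rare among dim genes: of 5 equal bins of genes by mean level, the dimmest held 18 higher and 7 lower calls and the others 161 to 258 higher and 105 to 210 lower.

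**Figure D1:**
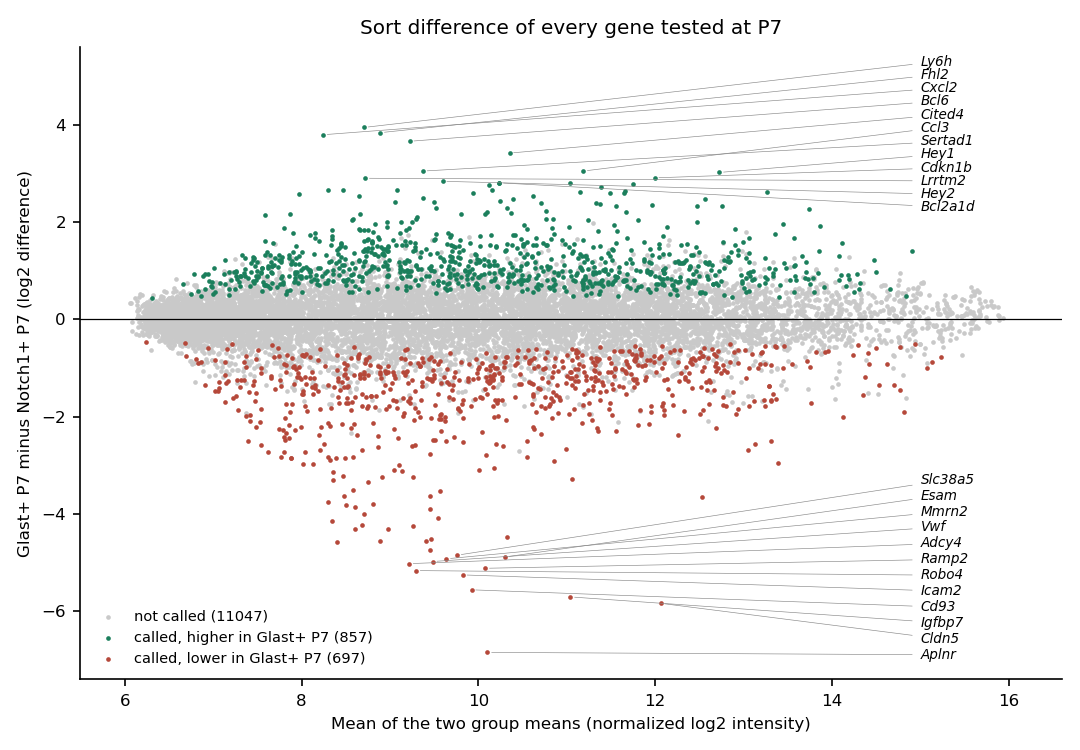
Difference between Glast+ P7 and Notch1+ P7 cells (y axis, log2) against the mean of both group means (x axis, normalized log2 intensity) for each of 12601 genes. Green points are genes called higher in Glast+ P7 cells (857), red points genes called lower (697) and grey points genes not called (11047); the 12 genes with the largest called difference in each direction are named. The low side reaches -6.85 and the high side 3.95.

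The captured proteins' own transcripts did not pass the test. Both were higher on each Glast+ P7 array than on any Notch1+ P7 array, a layout that 25.9% of all genes had. Notch1 measured 15.15 and 14.99 in Glast+ P7, against 14.66, 14.60 and 14.85 in Notch1+ P7 (normalized log2 intensity, the scale of every array value below). Its difference was 0.37 ± 0.21 (SE), adjusted p = 0.296. Slc1a3 measured 15.77 and 16.0004 in Glast+ P7, against 15.74, 15.55 and 15.53 in Notch1+ P7, with a difference of 0.28 ± 0.46 (SE), adjusted p = 0.784. Its probe was saturated on 1 of 2 Glast+ P7 arrays and on 2 of 3 Notch1+ P7 arrays, so a difference there can be understated. The SE draws on the spread within the groups of all ages. For Slc1a3 the SD was 0.16 in Glast+ P7, 0.11 in Notch1+ P7 and largest in Notch1+ P14, at 1.19. In the authors' own values both were called higher in Glast+ P7 cells, Notch1 by 0.86 and Slc1a3 by 1.47.

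Most genes of the vascular endothelium were lower in Glast+ P7 cells than in Notch1+ P7 cells. Of 39 tested members of this list, 30 were called lower (76.9%, against 5.53% of all genes) and 0 higher, with a median difference of -3.29 against 0.01 over all genes. The mean level over the list was 7.59 and 7.47 on the Glast+ P7 arrays, against 10.66, 11.36 and 9.74 on the Notch1+ P7 arrays. Within each array's set of transcripts, a lower level can come from fewer cells of a type or from less RNA per cell, and bulk arrays cannot tell these apart. Aplnr, the receptor of the peptide apelin and a gene of sprouting endothelium, measured 7.11 and 6.25 in Glast+ P7, against 13.42, 14.67 and 12.50 in Notch1+ P7. Its difference of -6.85 ± 0.51 (SE), adjusted p = 3.28e-07, 115-fold lower, was the largest of all genes tested, and its probe was found on only 1 of 2 Glast+ P7 arrays. Cldn5, a tight junction protein of the blood-retina barrier, was 57.4-fold lower at 9.39 and 8.90 in Glast+ P7, against 15.08, 15.59 and 14.28 in Notch1+ P7 (-5.84 ± 0.28 (SE), adjusted p = 3.42e-09).

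The other leading low genes had the same layout of values, with the Glast+ P7 arrays between 6 and 9 and the Notch1+ P7 arrays above 10, and no overlap. Igfbp7, a secreted binder of insulin-like growth factors, measured 8.18 and 8.19 in Glast+ P7, against 14.11, 14.29 and 13.29 in Notch1+ P7 (-5.71 ± 0.37). Cd93, a lectin-like receptor of endothelial cells, measured 7.46 and 6.82 in Glast+ P7, against 12.90, 13.36 and 11.85 in Notch1+ P7 (-5.56 ± 0.39), and the adhesion molecule Icam2 7.28 and 7.12 in Glast+ P7, against 12.47, 13.65 and 11.24 in Notch1+ P7 (-5.26 ± 0.50). Adjusted p-values for these 3 genes were 1.03e-07, 2.36e-07 and 6.57e-06. Also among the 12 largest were Ramp2, a partner of the adrenomedullin receptor (-5.12), Adcy4, an adenylate cyclase (-5.03), the clotting factor carrier Vwf (-4.98), Mmrn2, an endothelial matrix protein (-4.93), Esam, an endothelial junction protein (-4.89), and the glutamine transporter Slc38a5 (-4.85). The guidance receptor Robo4 differed by -5.17, but its second probe showed -0.31, which is also its value, without a call, when only probes found on all 5 arrays were kept. The second probe of Adcy4 also gave a smaller difference, -1.33, while that of Mmrn2 gave -3.85.

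**Figure D2:**
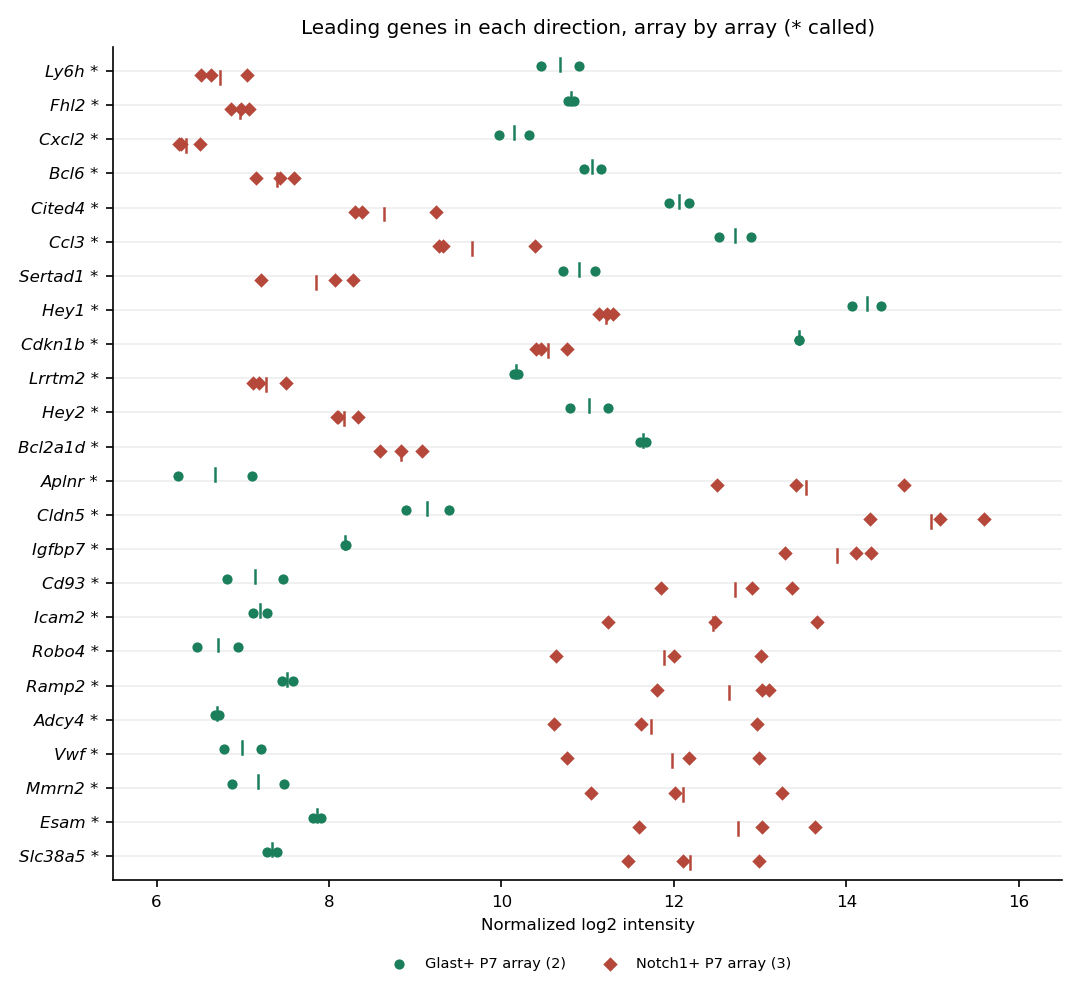
Normalized log2 intensity (x axis) of the 12 genes with the largest called difference in each direction, the higher ones above. Green circles are the 2 Glast+ P7 arrays, red diamonds the 3 Notch1+ P7 arrays, short bars the group means and asterisks called genes. In the lower block Notch1+ array 3 is the lowest red point of each gene, and all red points lie right of the green ones.

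The defining endothelial markers were split. Pecam1, a junctional adhesion molecule, measured 8.10 and 8.06 in Glast+ P7, against 12.49, 13.74 and 11.43 in Notch1+ P7 (-4.47 ± 0.53 (SE), adjusted p = 6.23e-05), and Cdh5, the cadherin of endothelial junctions, 6.89 and 6.93 in Glast+ P7, against 10.75, 11.62 and 9.75 in Notch1+ P7 (-3.80 ± 0.39 (SE), adjusted p = 1.55e-05). Tek, the angiopoietin receptor, was not found on either Glast+ P7 array, at 6.70 and 6.44, against 10.77, 11.96 and 9.68 on the Notch1+ P7 arrays, which makes it at least 18.8-fold lower (adjusted p = 1.03e-04). Kdr, a receptor of vascular endothelial growth factor that neural progenitors of the retina also carry, went the other way on the arrays, at 12.51 and 12.66 in Glast+ P7, against 12.32, 11.67 and 12.48 in Notch1+ P7, and was not called (0.43 ± 0.37 (SE), adjusted p = 0.525). The 9 members not called ranged from -1.32 for Fli1, an ETS-family transcription factor, to 0.53 for Itm2a, a membrane protein; these 2 were picked out after their values were seen, as the ends of that range. Fli1 was close to a call (adjusted p = 0.0539) and was called lower under 6 of the 20 alternatives, among them median scaling (-1.73), the mean of a gene's probes (-1.86) and the fit with the replicate number as a block (-1.45). Notch1+ array 3 had the lowest mean level of the list among the Notch1+ arrays. The count of lower members was 28 to 32 when 1 array was left out, 31 against the Notch1+ array of scan day 1 alone and 29 against those of scan day 2.

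Genes of the extracellular matrix moved in both directions. Of 41 tested, 6 were called higher (14.6%, against 6.8% of all genes) and 11 lower (26.8%, against 5.53%), with a median of -0.14. The lower ones included chains of the vessel basement membrane: the collagen IV chains Col4a1, at 11.82 and 11.59 in Glast+ P7, against 14.60, 15.19 and 13.38 in Notch1+ P7 (-2.69 ± 0.38 (SE), adjusted p = 2.70e-04), and Col4a2 (-2.57 ± 0.40), the laminin chains Lamb1 (-1.90 ± 0.37) and Lama4 (-2.84 ± 0.34), and Nid2, a nidogen that links both networks (-3.24 ± 0.40). Sparcl1, a secreted matrix-associated protein, differed by -3.34 ± 0.45. In each of these 6 genes all Glast+ values were below all Notch1+ values. Their adjusted p-values ranged from 6.75e-05 to 0.00307. On the other side, Timp3, an inhibitor of metalloproteinases that Müller glia also make, measured 12.89 and 12.70 in Glast+ P7, against 10.30, 10.40 and 9.89 in Notch1+ P7 (2.60 ± 0.23 (SE), adjusted p = 2.89e-06). Its second probe showed 0.93. Col5a1, a fibrillar collagen chain, was also higher (1.67 ± 0.36 (SE), adjusted p = 0.00582). Col5a1 lost its call without Glast+ array 2 (1.63). Col5a1 was also not called under median scaling (1.24). Endothelial marker levels, given above, moved with these genes, and their part in the difference was not tested. With 1 array left out the counts were 1 to 6 higher and 6 to 12 lower.

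Mural cells, the pericytes and smooth muscle cells around vessels, showed no such block. Of 19 genes tested, 2 were called higher (10.5%, against 6.8% of all genes) and 1 lower (5.26%, against 5.53%), shares near those of all genes, with a median of -0.14. The defining markers Rgs5, a regulator of G-protein signalling, at 7.56 and 7.66 in Glast+ P7, against 8.34, 8.17 and 7.28 in Notch1+ P7 (-0.32 ± 0.47 (SE), adjusted p = 0.75), and Cspg4, the NG2 proteoglycan (-0.14, adjusted p = 0.871), did not pass the test, and Kcnj8, a potassium channel, was not found on either Glast+ P7 array (-0.28, adjusted p = 0.823). The member called lower was Higd1b, not found on either Glast+ P7 array, at 6.74 and 6.55, against 9.46, 9.38 and 8.14 on the Notch1+ P7 arrays, at least 5.09-fold lower (adjusted p = 0.00491). The members called higher were Heyl, which is also on the Notch pathway list and is described below, and Mcam, an adhesion molecule (0.94 ± 0.24 (SE), adjusted p = 0.0152). Higd1b lost its call without Glast+ array 2 (-2.25) and Mcam without Glast+ array 1 (1.07), Glast+ array 2 (0.82) or Notch1+ array 1 (0.89). Mcam was also not called under median scaling (0.63), in the mean of a gene's probes (0.60), with scan day as a random block (0.94) and against the Notch1+ array of scan day 1 alone (0.67).

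A few transcripts of red blood cells were lower in Glast+ P7 cells. Of 13 genes tested, 3 were lower (23.1%, against 5.53% of all genes) and 0 higher, with a median of -0.05. Alas2, the first enzyme of heme synthesis in red cells, was not found on either Glast+ P7 array, at 6.68 and 6.06, against 8.89, 8.93 and 7.59 on the Notch1+ P7 arrays, at least 4.28-fold lower (adjusted p = 0.00279). The globin chains Hbb-b2 (-2.50 ± 0.61 (SE), adjusted p = 0.0126) and Hbb-bt (-2.52 ± 0.62, adjusted p = 0.0136) are near-identical copies whose probes may cross-hybridize, so they count as 1 observation and the 3 calls as 2. Without Glast+ array 2, which was the lower of the pair in each of the 3 genes, 0 of these calls were left (-1.79, -1.79 and -1.84, in the same order). Those of Hbb-b2 (-2.04) and Hbb-bt (-2.003) also ended without Notch1+ array 1 and in a fit of the 5 arrays alone (adjusted p = 0.0657 and 0.0773), and that of Hbb-b2 ended against the Notch1+ array of scan day 1 alone (-2.72).

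Most microglial genes were higher in Glast+ P7 cells. Of 29 tested, 19 were called higher (65.5%, against 6.8% of all genes) and 0 lower, all 29 had a positive difference, and the median was 1.53. The mean level over the list was 10.26 and 10.54 on the Glast+ P7 arrays, against 8.85, 9.05 and 8.58 on the Notch1+ P7 arrays. Cx3cr1, the fractalkine receptor that marks microglia, measured 11.62 and 11.65 in Glast+ P7, against 8.82, 9.02 and 8.64 in Notch1+ P7 (2.80 ± 0.43 (SE), adjusted p = 5.61e-04, 6.98-fold). The complement component C1qa measured 12.57 and 12.98 in Glast+ P7, against 10.63, 10.86 and 10.23 in Notch1+ P7 (2.21 ± 0.41 (SE), adjusted p = 0.00206), and Selplg, a selectin ligand, 11.41 and 11.55 in Glast+ P7, against 8.90, 9.38 and 8.21 in Notch1+ P7 (2.65 ± 0.27 (SE), adjusted p = 1.23e-05). The Glast+ values lay above the Notch1+ values in each case. Also higher were Olfml3, a secreted protein of microglia (2.18 ± 0.36), Cd53, a leukocyte tetraspanin (2.16 ± 0.37), Tmem119, a microglial membrane protein (1.83 ± 0.30), and Spi1, the transcription factor PU.1 needed for myeloid cells (1.31 ± 0.23), with adjusted p-values of 8.12e-04 to 0.00119. The second probe of Cd53 showed 0.06. Among the defining markers, P2ry12, a purine receptor, was not called (0.73 ± 0.43 (SE), adjusted p = 0.315), and Aif1, which encodes Iba1, was called narrowly (1.53 ± 0.49 (SE), adjusted p = 0.048), with the call lost in 11 of the 20 alternatives, each single array left out included (1.31 to 1.76). The count of higher members was 11 to 17 with 1 array left out and 12 under median scaling.

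Inflammatory mediators that myeloid cells are known to make were among the leading genes on the same side. Cxcl2, a neutrophil-attracting chemokine, measured 9.97 and 10.32 in Glast+ P7 and was not found on any Notch1+ P7 array, at 6.28, 6.499 and 6.25, at least 13.9-fold higher (adjusted p = 2.92e-04). Ccl3, another chemokine, measured 12.53 and 12.89 in Glast+ P7, against 9.32, 10.38 and 9.28 in Notch1+ P7 (3.05 ± 0.42 (SE), adjusted p = 1.99e-04). Bcl2a1d, an inhibitor of cell death with near-identical neighbours in the mouse genome that its probe may share, measured 11.67 and 11.61 in Glast+ P7, against 8.84, 9.08 and 8.59 in Notch1+ P7 (2.81 ± 0.42 (SE), adjusted p = 4.53e-04). The microglial markers moved with these 3 genes, and their part in the difference was not tested. Against the Notch1+ array of scan day 1 alone, the calls of Cxcl2 (3.64) and Tmem119 (1.33) ended.

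Genes of Müller glia leaned to the Glast+ side, but Glul, Rlbp1 and Aqp4, markers of the mature cells, did not pass the test. Of 37 tested, 12 were called higher (32.4%, against 6.8% of all genes) and 0 lower, 34 had a positive difference, and the median was 0.61. The mean level over the list was 12.66 and 12.71 on the Glast+ P7 arrays, against 12.02, 12.01 and 11.93 on the Notch1+ P7 arrays. Sox9, a transcription factor of progenitors and Müller glia, measured 15.61 and 15.60 in Glast+ P7, against 14.00, 14.51 and 14.104 in Notch1+ P7 (1.399 ± 0.36 (SE), adjusted p = 0.0178). Sox2, which works beside it, measured 13.88 and 13.78 in Glast+ P7, against 11.40, 12.29 and 12.23 in Notch1+ P7 (1.86 ± 0.53 (SE), adjusted p = 0.0304). Other higher members were Id3, an inhibitor of proneural factors (0.97 ± 0.23 (SE), adjusted p = 0.00977), Cd44, a hyaluronan receptor of the glial apical processes (1.34 ± 0.35 (SE), adjusted p = 0.0185), and Mlc1, a membrane protein of glial endfeet (1.55 ± 0.41 (SE), adjusted p = 0.0198). The second probe of Mlc1 showed 0.14 and another probe of Cd44 -0.12.

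Glul, the glutamine synthetase of Müller glia, measured 13.33 and 13.02 in Glast+ P7, against 12.71, 12.15 and 12.83 in Notch1+ P7 (0.61 ± 0.41 (SE), adjusted p = 0.39), and Rlbp1, their retinaldehyde-binding protein, 14.60 and 14.75 in Glast+ P7, against 14.14, 14.22 and 14.03 in Notch1+ P7 (0.55 ± 0.54 (SE), adjusted p = 0.599). In both, the Glast+ values lay above the Notch1+ values, as for 25.9% of all genes, without a call. The SE draws on the spread within the groups of all ages. For Rlbp1 the SD was 0.10 in Glast+ P7, 0.10 in Notch1+ P7 and largest in Notch1+ P14, at 1.43. For Glul it was 0.22 in Glast+ P7, 0.37 in Notch1+ P7 and largest in Glast+ P21, at 1.13. Vim, an intermediate filament protein, differed by 0.51 ± 0.19 (SE), adjusted p = 0.0885, and the water channel Aqp4, found late in Müller glia, by 0.29 ± 0.36 (SE), adjusted p = 0.691, at 6.81 and 7.28 in Glast+ P7, against 6.98, 6.78 and 6.502 in Notch1+ P7. Gfap, the filament of astrocytes and stressed Müller glia, measured 6.97 and 7.03 in Glast+ P7, against 6.33, 5.90 and 6.27 in Notch1+ P7, apart but without a call (0.83 ± 0.57 (SE), adjusted p = 0.406). Id1, a relative of Id3, is a list member that pointed down (-1.59, adjusted p = 0.0701), picked out after its values were seen. Vim was called higher in the authors' own values (1.12), Gfap higher in a fit of the 5 arrays alone (adjusted p = 0.041), and Id1 lower in that fit (adjusted p = 0.00917) and with the replicate number as a block (-1.92). Sox9 lost its call without Glast+ array 1 (1.39), Glast+ array 2 (1.41) or Notch1+ array 1 (1.30), Sox2 without Glast+ array 1 (1.80), Glast+ array 2 (1.91) or Notch1+ array 1 (1.57), Id3 without Glast+ array 2 (0.70), Cd44 without Glast+ array 1 (1.32), Glast+ array 2 (1.35) or Notch1+ array 2 (1.29) and Mlc1 without Glast+ array 1 (1.61), Glast+ array 2 (1.48) or Notch1+ array 3 (1.24). Sox2 (1.53), Cd44 (1.09) and Mlc1 (1.15) were also not called under median scaling, Sox2 (1.57) and Cd44 (0.41) in the mean of a gene's probes, Id3 (0.97) in a fit of the 5 arrays alone, Sox9 (1.4002) and Sox2 (1.87) with scan day as a random block and Sox9 (1.10), Sox2 (1.54), Id3 (0.69) and Cd44 (1.43) against the Notch1+ array of scan day 1 alone. The number of higher members was 2 without Glast+ array 1, 1 without Glast+ array 2, 6 to 9 without 1 of the Notch1+ arrays, 3 under median scaling and 22 in the authors' own values.

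Astrocytes, which carry Slc1a3 too, had 5 of 12 tested genes higher (41.7%, against 6.8% of all genes) and 0 lower, with a median of 0.57. The higher count was 2 to 5 with 1 array left out, 2 with either Glast+ array left out, and 1 under median scaling. The glial calcium-binding protein S100b measured 7.17 and 7.32 in Glast+ P7 and was not found on any Notch1+ P7 array, at 6.46, 6.29 and 6.19, at least 1.91-fold higher (adjusted p = 0.00129). Agt, angiotensinogen, differed by 1.38 ± 0.25 (SE), adjusted p = 0.00149, and Pdgfra, the growth factor receptor of retinal astrocytes, by 1.95 ± 0.57 (SE), adjusted p = 0.0319, while the astrocyte transcription factor Pax2 did not pass the test (0.31 ± 0.32 (SE), adjusted p = 0.619). Pdgfra lost its call without Glast+ array 1 (2.03), Glast+ array 2 (1.88), Notch1+ array 1 (2.08) or Notch1+ array 3 (1.59). Pdgfra (1.65) and Agt (1.21) were also not called under median scaling, Pdgfra (1.99) with scan day as a random block and S100b (0.95) and Agt (1.28) against the Notch1+ array of scan day 1 alone. In the wider list of glial transport and metabolism, 4 of 27 genes were higher (14.8%) and 0 lower, led by Dag1, dystroglycan, at 13.18 and 13.12 in Glast+ P7, against 11.97, 12.08 and 11.92 in Notch1+ P7 (1.16 ± 0.16 (SE), adjusted p = 1.97e-04). Dag1 was not called under median scaling (0.83). The count of that list was 1 to 2 with 1 array left out, 1 with either Glast+ array left out, and 0 under median scaling, where its median was -0.02 instead of 0.28.

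Progenitor genes were mixed. Of 25 tested, 5 were higher (20%, against 6.8% of all genes) and 2 lower (8%, against 5.53%), with a median of 0.37. The higher count was 0 when Glast+ array 1, Glast+ array 2 or Notch1+ array 1 was left out. Under median scaling 1 was higher and 3 lower, with a median of 0.05. Sox2 and Hes5 are on this list too. Lhx2, a homeobox factor of progenitors and Müller glia, measured 11.84 and 11.70 in Glast+ P7, against 10.002, 10.34 and 10.52 in Notch1+ P7 (1.48 ± 0.42 (SE), adjusted p = 0.0275), and Nes, the filament protein nestin, 12.57 and 12.48 in Glast+ P7, against 11.05, 11.53 and 11.43 in Notch1+ P7 (1.18 ± 0.29 (SE), adjusted p = 0.0123). Other defining factors did not pass the test: Rax differed by -0.40 ± 0.56 (adjusted p = 0.738), Pax6 by 0.41 ± 0.64 (adjusted p = 0.772) and the growth factor Fgf15 by 0.29 ± 0.44 (adjusted p = 0.757). On the low side, Cdk4, the kinase partner of D-type cyclins, measured 11.76 and 11.87 in Glast+ P7, against 12.49, 12.73 and 12.87 in Notch1+ P7 (-0.88 ± 0.18 (SE), adjusted p = 0.00405), and Meis2, a homeobox factor, differed by -1.78 ± 0.49 (SE), adjusted p = 0.0259. Ccnd1, cyclin D1, was saturated on all 3 Notch1+ P7 arrays, so only a bound is known there, and was not called (adjusted p = 0.784). The sign of its difference turned with the scaling. Lhx2 lost its call without Glast+ array 1 (1.41), Glast+ array 2 (1.55), Notch1+ array 1 (1.34) or Notch1+ array 2 (1.51), Nes without Glast+ array 1 (1.14), Glast+ array 2 (1.23) or Notch1+ array 1 (1.04), Cdk4 without Glast+ array 1 (-0.82) and Meis2 without Glast+ array 1 (-2.18), Glast+ array 2 (-1.37), Notch1+ array 1 (-1.74) or Notch1+ array 3 (-1.76). Lhx2 (1.07) and Nes (0.81) were also not called under median scaling, Cdk4 (-0.60) in the authors' own values, Lhx2 (1.49) and Meis2 (-1.76) with scan day as a random block, Cdk4 (-0.91) and Meis2 (-1.67) against the Notch1+ array of scan day 1 alone and Lhx2 (1.51) and Meis2 (-1.83) against the Notch1+ arrays of scan day 2 alone.

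Several Notch targets, Hey1, Hey2, Heyl, Hes5 and Nrarp, were higher in Glast+ P7 cells, while Hes1 and the ligands Dll1 and Jag1 were not called. Of 42 tested members, 9 were called higher (21.4%, against 6.8% of all genes) and 3 lower (7.14%, against 5.53%), with a median of 0.09. Hey1, a repressor that Notch signalling switches on, measured 14.07 and 14.40 in Glast+ P7, against 11.23, 11.29 and 11.13 in Notch1+ P7 (3.02 ± 0.37 (SE), adjusted p = 7.68e-05, 8.11-fold). Its relative Hey2 measured 11.23 and 10.80 in Glast+ P7, against 8.11, 8.09 and 8.34 in Notch1+ P7 (2.84 ± 0.29 (SE), adjusted p = 1.55e-05), and Heyl, the remaining member of the family, 11.64 and 11.61 in Glast+ P7, against 8.71, 8.91 and 9.84 in Notch1+ P7 (2.47 ± 0.48 (SE), adjusted p = 0.0027). Nrarp, a small protein that Notch induces and that damps the pathway, measured 14.80 and 14.84 in Glast+ P7, against 12.62, 13.31 and 12.76 in Notch1+ P7 (1.92 ± 0.23 (SE), adjusted p = 7.68e-05). Maml1, a Mastermind coactivator, measured 13.78 and 13.52 in Glast+ P7, against 12.02, 12.45 and 12.22 in Notch1+ P7 (1.42 ± 0.21 (SE), adjusted p = 4.15e-04). These 5 calls held under each of the 20 alternatives. Hes5, the repressor most tied to Notch in retinal progenitors and Müller glia, measured 13.69 and 13.92 in Glast+ P7, against 11.10, 11.13 and 11.73 in Notch1+ P7. The Glast+ values were 5.59-fold higher, with no overlap (2.48 ± 0.67 (SE), adjusted p = 0.0224). Hes1, by contrast, overlapped between the sorts, at 12.52 and 13.16 in Glast+ P7, against 12.56, 12.67 and 12.36 in Notch1+ P7 (0.31 ± 0.26 (SE), adjusted p = 0.523). Ncstn, a subunit of the protease that frees the intracellular domain, was also higher (0.74 ± 0.15 (SE), adjusted p = 0.0037).

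The receptor called lower was Notch4, which is largely endothelial, at 9.51 and 9.80 in Glast+ P7, against 12.33, 12.99 and 11.65 in Notch1+ P7 (-2.67 ± 0.40 (SE), adjusted p = 4.40e-04), and it moved with the endothelial markers given above, whose part in its difference was not tested. Adam10, the protease that makes the first cut in a bound Notch receptor, measured 8.42 and 8.69 in Glast+ P7, against 11.18, 9.71 and 10.89 in Notch1+ P7 (-2.04 ± 0.40 (SE), adjusted p = 0.00283). The ligands Dll1, at 8.97 and 9.45 in Glast+ P7, against 9.85, 9.86 and 10.43 in Notch1+ P7 (-0.83 ± 0.44 (SE), adjusted p = 0.253), and Jag1 (-0.93 ± 0.50 (SE), adjusted p = 0.264) did not pass the test. The third lower member was Snw1, a nuclear cofactor (-0.80 ± 0.19 (SE), adjusted p = 0.0115), whose second probe pointed up (1.25), so its direction is unsettled. Hes5 lost its call without Glast+ array 1 (2.60), Glast+ array 2 (2.37), Notch1+ array 1 (2.37) or Notch1+ array 2 (2.39), Ncstn without Glast+ array 2 (0.68) and Snw1 without Glast+ array 1 (-0.39). Hes5 (2.13), Ncstn (0.39) and Snw1 (-1.13) were also not called under median scaling, Snw1 (-0.51) in the authors' own values, Snw1 (-0.80) in a fit of the 5 arrays alone, Hes5 (2.53) with scan day as a random block, Ncstn (0.59), Adam10 (-1.16) and Snw1 (-0.66) against the Notch1+ array of scan day 1 alone and Hes5 (2.39) against the Notch1+ arrays of scan day 2 alone. The counts over the list were 5 to 8 higher and 2 to 4 lower with 1 array left out.

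**Figure D3:**
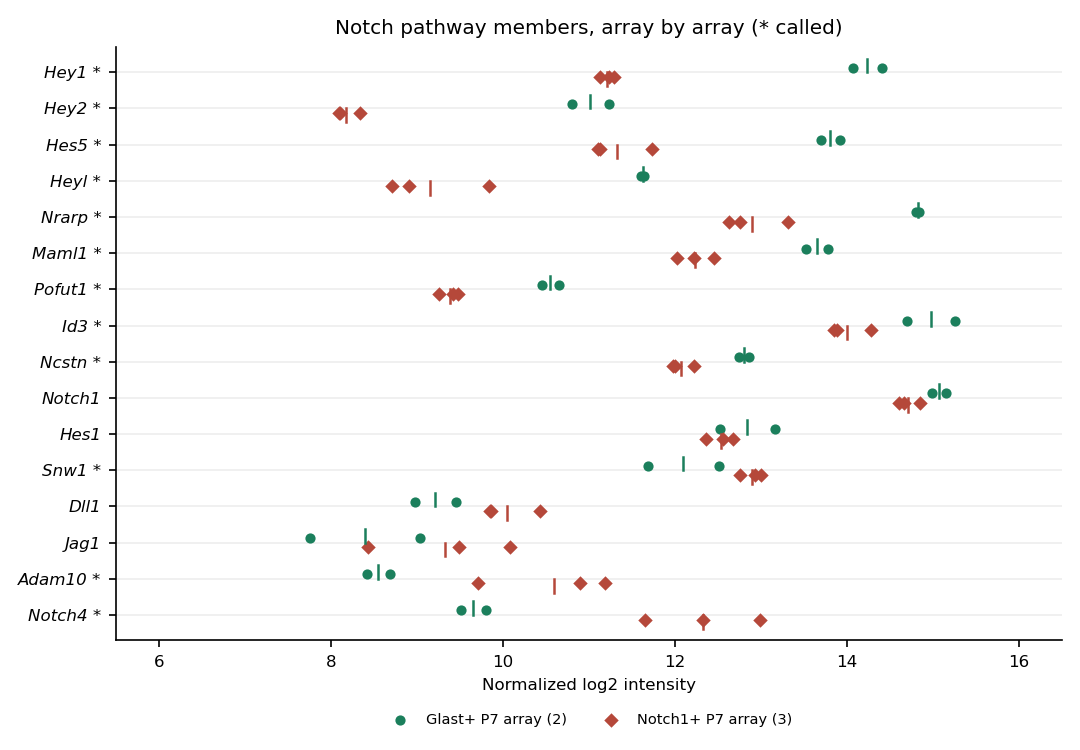
Normalized log2 intensity (x axis) of the 12 called Notch pathway members (asterisks) and of Notch1, Hes1, Dll1 and Jag1, sorted by difference. Green circles are the 2 Glast+ P7 arrays, red diamonds the 3 Notch1+ P7 arrays and short bars the group means. The Hey family, Hes5 and Nrarp lie to the right in green, Adam10 and Notch4 to the left, and Hes1 overlaps.

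The upstream sequences of 4 called genes are given, each picked because it holds a match to a motif of its group. Each group has a family of DNA-binding proteins tied to it in textbooks: RBPJ for the Hes and Hey repressors, ETS factors for endothelial genes and PU.1 for microglial genes. Each run is the 250 bases before the annotated start, read 5′ to 3′ on the gene's own strand, from RefSeq (build GRCm38.p6), with matches to the named motif on either strand in capitals. The Hes5 run lies at chr4:154960673-154960922 (plus strand) and that of Hey2 at chr10:30842784-30843033 (minus strand), both with the RBPJ core TGGGAA or its reverse complement TTCCCA marked. The Notch4 run lies at chr17:34564045-34564294 (plus strand) with an ETS-type core, CAGGAAG or CTTCCTG, and the C1qc run, a complement component of the microglial list, at chr4:136892915-136893164 (minus strand) with a PU.1-type core, GAGGAAG or CTTCCTC.
Hes5: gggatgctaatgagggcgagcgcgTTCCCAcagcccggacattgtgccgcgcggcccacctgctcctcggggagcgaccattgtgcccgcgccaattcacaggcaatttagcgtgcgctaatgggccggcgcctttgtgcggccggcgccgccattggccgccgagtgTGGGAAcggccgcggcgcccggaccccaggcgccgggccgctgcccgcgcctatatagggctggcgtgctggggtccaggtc
Hey2: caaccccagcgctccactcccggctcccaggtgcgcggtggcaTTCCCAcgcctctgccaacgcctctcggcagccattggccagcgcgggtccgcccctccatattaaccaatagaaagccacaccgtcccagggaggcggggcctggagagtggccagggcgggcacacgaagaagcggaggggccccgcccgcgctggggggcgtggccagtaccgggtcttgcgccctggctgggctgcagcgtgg
Notch4: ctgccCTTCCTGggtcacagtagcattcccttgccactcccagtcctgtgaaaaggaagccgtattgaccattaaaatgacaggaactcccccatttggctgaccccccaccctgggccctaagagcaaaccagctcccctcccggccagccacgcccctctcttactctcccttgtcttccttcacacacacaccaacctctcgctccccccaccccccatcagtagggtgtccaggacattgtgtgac
C1qc: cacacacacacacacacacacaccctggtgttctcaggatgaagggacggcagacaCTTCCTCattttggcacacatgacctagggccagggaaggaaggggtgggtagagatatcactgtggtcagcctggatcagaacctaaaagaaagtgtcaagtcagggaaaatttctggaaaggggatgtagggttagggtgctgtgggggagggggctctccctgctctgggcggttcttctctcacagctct
Hes5 held 2 matches, whose first bases lie 226 and 82 bases before the start, and the other runs held 1 each, at 207 (Hey2), 245 (Notch4) and 194 bases (C1qc). Over the 27025 genes of the RefSeq table, 24.1% had the RBPJ core in this window, against 6 of the 31 tested Notch pathway members in the table (19.4%) and 2 of the 9 called ones among them, Hes5 and Hey2. The ETS-type core was in 12.1% of all genes and in 9 of 22 endothelial members (40.9%), and the PU.1-type core in 3244 of all 27025 genes and in 7 of 22 microglial members (31.8%). The ETS-type and PU.1-type letters share the bases AGGAAG. A match describes letters only. C1qc was higher in Glast+ P7 cells, by 2.79 ± 0.52 (adjusted p = 0.0021), and was chosen for this sequence after its values were seen.

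Of the factors of neurogenesis, Gadd45g, Neurog2, Prdm1, Insm1 and Foxn4 were lower in Glast+ P7 cells. Of 32 tested, 5 were lower (15.6%, against 5.53% of all genes) and 0 higher in Glast+ P7 cells, 24 had a negative difference, and the median was -0.84. Gadd45g, a growth-arrest gene of cells leaving the cycle as neurons, measured 10.42 and 10.98 in Glast+ P7, against 14.09, 14.40 and 14.58 in Notch1+ P7, 12.6-fold lower (-3.66 ± 0.83 (SE), adjusted p = 0.00788). Neurog2, a proneural factor, measured 7.49 and 7.95 in Glast+ P7, against 9.44, 9.39 and 9.44 in Notch1+ P7 (-1.71 ± 0.49 (SE), adjusted p = 0.0296). Prdm1, which marks photoreceptor precursors (-1.84 ± 0.39 (SE), adjusted p = 0.00519), Insm1, a zinc-finger factor of differentiating neurons (-1.82 ± 0.48 (SE), adjusted p = 0.0203), and Foxn4, a factor of amacrine and horizontal cell precursors (-1.21 ± 0.31 (SE), adjusted p = 0.0166), were lower too. Atoh7, the ganglion cell factor, was not called (-0.54 ± 0.27 (SE), adjusted p = 0.223). Gadd45g lost its call without Glast+ array 1 (-3.38), Prdm1 without Glast+ array 2 (-1.54), Insm1 without Glast+ array 2 (-1.12) or Notch1+ array 1 (-1.67) and Foxn4 without Glast+ array 1 (-1.04), Glast+ array 2 (-1.39) or Notch1+ array 3 (-0.94). Foxn4 (-1.21) was also not called in a fit of the 5 arrays alone, Insm1 (-1.74) with scan day as a random block and Gadd45g (-3.70), Prdm1 (-1.17) and Insm1 (-1.57) against the Notch1+ array of scan day 1 alone. The call of Neurog2 ended in 7 of the 20 alternatives, each single array left out included (-1.94 to -1.48).

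Among cell cycle genes, the inhibitor Cdkn1b stood out. Cdkn1b, which encodes p27Kip1 and rises as cells leave the cycle, measured 13.45 and 13.45 in Glast+ P7, against 10.46, 10.40 and 10.77 in Notch1+ P7, 7.51-fold higher in Glast+ P7 cells (2.91 ± 0.30 (SE), adjusted p = 1.36e-05). Its call held under each alternative, and its second probe showed 0.77. The related inhibitors Cdkn1c (-0.22 ± 0.34 (SE), adjusted p = 0.762) and Cdkn1a (-0.35 ± 0.59 (SE), adjusted p = 0.795) did not pass the test. Replication genes had 6 of 46 lower (13%) and 1 higher, and mitotic genes 7 of 54 lower (13%) and 1 higher, against 5.53% lower among all genes, with medians of -0.19 and -0.27. Tk1, the thymidine kinase of S phase, measured 7.88 and 8.22 in Glast+ P7, against 9.39, 9.82 and 9.68 in Notch1+ P7 (-1.58 ± 0.29 (SE), adjusted p = 0.00181), although another of its probes showed 0.06. Plk1, a mitotic kinase, measured 9.12 and 9.19 in Glast+ P7, against 9.97, 10.52 and 10.71 in Notch1+ P7 (-1.24 ± 0.26 (SE), adjusted p = 0.00449), with the call lost against the Notch1+ array of scan day 1 alone (-1.37). The defining markers Top2a (-0.28, adjusted p = 0.493), Cdk1 (-0.35, adjusted p = 0.619), Mcm2 (0.67, adjusted p = 0.181) and Pcna (0.40, adjusted p = 0.194) were not called. Ccnb1, cyclin B1, is a defining mitotic marker that was called lower narrowly, at 9.60 and 9.77 in Glast+ P7, against 10.02, 10.57 and 11.28 in Notch1+ P7 (-0.94 ± 0.30 (SE), adjusted p = 0.0491), with the call lost in 14 of the 20 alternatives. The mean level of the mitotic list was 9.30 and 9.50 on the Glast+ P7 arrays, against 9.32, 9.59 and 10.13 on the Notch1+ P7 arrays, so array 3 of Notch1+ was the highest and the others overlapped. The lower counts were 3 to 5 and 1 to 7 with 1 array left out, and 2 and 0 against the Notch1+ array of scan day 1 alone. Under median scaling 11 replication and 12 mitotic genes were lower, with medians of -0.56 and -0.68, while in the authors' own values the medians were -0.01 and -0.08.

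Some rod and cone genes were called lower in Glast+ P7 cells, and most of these calls depended on single arrays of both groups. Of 35 rod genes tested, 6 were lower (17.1%, against 5.53% of all genes) and 0 higher, 33 had a negative difference and the median was -1.36. Of 14 cone genes, 2 were lower and 0 higher (median -0.93). The mean level over the rod list was 10.56 and 9.31 on the Glast+ P7 arrays, against 11.85, 11.18 and 10.52 on the Notch1+ P7 arrays, so the groups overlapped and Glast+ array 2 lay below all others. Sag, rod arrestin, measured 13.13 and 10.68 in Glast+ P7, against 15.93, 14.14 and 14.54 in Notch1+ P7 (-2.97 ± 0.65 (SE), adjusted p = 0.0064). Rgs9, which speeds the end of the light response, was not found on either Glast+ P7 array, at 6.40 and 6.44, against 7.45, 8.40 and 7.26 on the Notch1+ P7 arrays, at least 2.43-fold lower (adjusted p = 0.0152). Nrl, the transcription factor that sets the rod fate, measured 14.26 and 12.18 in Glast+ P7, against 15.40, 14.50 and 14.67 in Notch1+ P7 and was not called (-1.64 ± 0.63 (SE), adjusted p = 0.105). Pde6b, a rod phosphodiesterase subunit (-0.96, adjusted p = 0.337), and the cone arrestin Arr3 (-1.34, adjusted p = 0.257) were not called either. Without Glast+ array 2, 0 rod and 0 cone genes were called. The rod count was 2 without Notch1+ array 1, 2 without Notch1+ array 2 and 1 against the Notch1+ array of scan day 1 alone, and the cone count 0 without Notch1+ array 1. Sag lost its call without Glast+ array 2 (-1.74) and Rgs9 without Glast+ array 1 (-1.26), Glast+ array 2 (-1.31) or Notch1+ array 2 (-0.93). Sag (-2.97) and Rgs9 (-1.28) were also not called in a fit of the 5 arrays alone and Sag (-2.23) against the Notch1+ array of scan day 1 alone. With Glast+ array 1 left out instead, 9 rod genes were lower, Nrl among them (-2.68), and without Notch1+ array 3 Arr3 was called (-2.14).

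Other neuronal lists held fewer calls. Bipolar cell genes had 4 of 26 lower (15.4%, against 5.53% of all genes) and 1 higher. The lower count was 1 without Glast+ array 2, Notch1+ array 1 or Notch1+ array 2. Pcp2, a G-protein modulator of bipolar cells, measured 8.21 and 8.29 in Glast+ P7, against 11.48, 10.81 and 9.93 in Notch1+ P7 (-2.49 ± 0.39 (SE), adjusted p = 5.68e-04) and kept its call under each alternative. The glutamate receptor Grm6 of ON bipolar cells ranged widely among Notch1+ P7 arrays, at 9.38 and 8.23 in Glast+ P7, against 12.60, 11.88 and 7.74 in Notch1+ P7 (-1.93 ± 1.03 (SE), adjusted p = 0.259), and was called only without Notch1+ array 3 (-3.43). Ganglion cell genes had 2 of 25 lower (8%) and 1 higher. Isl2, a homeobox factor of a subset of ganglion cells, measured 7.52 and 7.07 in Glast+ P7, against 9.36, 9.11 and 8.92 in Notch1+ P7 (-1.84 ± 0.32 (SE), adjusted p = 0.00142), and Rbpms, an RNA-binding protein of ganglion cells that vessels also express, 8.48 and 7.97 in Glast+ P7, against 10.13, 11.13 and 9.66 in Notch1+ P7 (-2.08 ± 0.44 (SE), adjusted p = 0.00512), with the call lost without Glast+ array 2 (-1.82). Amacrine and horizontal cell genes had 3 of 25 higher (12%, against 6.8%), 0 without Glast+ array 2, and 1 lower, and the defining markers Gad1 (-0.97, adjusted p = 0.469) and Calb2 (-1.42, adjusted p = 0.0624) were not called, Calb2 except without Notch1+ array 3 (-1.93) and under 3 of the other alternatives. Differences on the amacrine and horizontal cell list ran from -1.78 to 1.99, with 9 positive and 16 negative and a median of -0.31. Of its 4 tested defining markers, 0 were called in the main fit. Synaptic vesicle genes had 6 of 31 lower (19.4%) and 0 higher, with a median of -0.74, Syp, synaptophysin, among them at 12.77 and 11.50 in Glast+ P7, against 14.02, 13.90 and 12.94 in Notch1+ P7 (-1.49 ± 0.45 (SE), adjusted p = 0.0398). None of the synaptic genes, 0 of 31, was called without Glast+ array 2, and the call of Syp ended in 10 of the 20 alternatives, among them those without Glast+ array 2 (-0.85), Notch1+ array 1 (-1.29) or Notch1+ array 2 (-1.35).

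Genes of the glial response to injury and of cellular stress were higher in part. On the gliosis list 9 of 35 were higher (25.7%, against 6.8% of all genes) and 3 lower (8.57%, against 5.53%), with a median of 0.51. On the list of immediate-early and stress genes 7 of 43 were higher (16.3%) and 1 lower (2.33%), with a median of 0.38. Stat3, the transcription factor that cytokines of the interleukin 6 family activate, measured 13.89 and 13.95 in Glast+ P7, against 11.67, 11.49 and 11.61 in Notch1+ P7 (2.33 ± 0.34 (SE), adjusted p = 3.61e-04). Socs3, which Stat3 induces and which shuts it off, measured 12.58 and 13.07 in Glast+ P7, against 10.54, 10.58 and 11.21 in Notch1+ P7 (2.04 ± 0.36 (SE), adjusted p = 0.00152), and Atf3, a stress-induced factor, 11.72 and 12.04 in Glast+ P7, against 9.23, 9.76 and 9.98 in Notch1+ P7 (2.22 ± 0.34 (SE), adjusted p = 5.47e-04). These 3 calls held under each alternative. Tnfrsf12a, the TWEAK receptor (2.33 ± 0.45 (SE), adjusted p = 0.00261), Cxcl10, an interferon-induced chemokine (2.58 ± 0.42 (SE), adjusted p = 8.28e-04), and Irf1, a transcription factor of the interferon response (2.35 ± 0.40 (SE), adjusted p = 0.00109), were higher as well, and these calls ended against the Notch1+ array of scan day 1 alone (2.06, 2.56 and 2.22, in that order). Among other immediate-early genes, Jun was not called (-0.77 ± 0.35 (SE), adjusted p = 0.168), and Fos, saturated on 2 of 3 Notch1+ P7 arrays, differed by -0.20 ± 0.38 (adjusted p = 0.823).

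On the low side of these lists were Emp1, a membrane protein, at 7.99 and 8.15 in Glast+ P7, against 10.66, 11.66 and 10.21 in Notch1+ P7 (-2.77 ± 0.41 (SE), adjusted p = 3.96e-04), Cd109, a membrane-anchored protease inhibitor (-2.18 ± 0.40 (SE), adjusted p = 0.00183), and Ddit4, an inhibitor of mTOR signalling induced by stress (-1.95 ± 0.38 (SE), adjusted p = 0.00283). Ifitm3, an interferon-induced membrane protein that endothelium carries, measured 7.599 and 7.61 in Glast+ P7, against 10.72, 11.26 and 9.82 in Notch1+ P7 (-2.99 ± 0.37 (SE), adjusted p = 8.16e-05). These 4 calls held under each alternative. Ifitm3 is on a list of interferon and antigen presentation genes, where 1 of 32 was higher (3.1%, against 6.8% of all genes) and 2 lower (6.25%, against 5.53%). Counts of higher genes with 1 array left out were 5 to 8 on the gliosis list and 2 to 8 on the immediate-early list. Microglial markers on the high side and endothelial markers on the low side moved with these genes, and their part was not tested.

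The leading higher genes also included regulators of transcription. Bcl6, a transcriptional repressor, measured 11.15 and 10.96 in Glast+ P7, against 7.59, 7.43 and 7.15 in Notch1+ P7, 12.7-fold higher, with the smallest adjusted p among the 12 leading higher genes (3.66 ± 0.19 (SE), adjusted p = 3.74e-09). Fhl2, a LIM-domain cofactor, measured 10.84 and 10.78 in Glast+ P7, against 6.86, 7.07 and 6.98 in Notch1+ P7 (3.84 ± 0.31 (SE), adjusted p = 8.27e-07), and Cited4, a coactivator that binds CBP and p300, 12.18 and 11.94 in Glast+ P7, against 8.30, 8.38 and 9.25 in Notch1+ P7 (3.42 ± 0.45 (SE), adjusted p = 1.57e-04). Sertad1, a regulator of Cdk4 and E2F, differed by 3.05 ± 0.54 (SE), adjusted p = 0.00142, and Lrrtm2, a synaptic adhesion protein, by 2.90 ± 0.25 (SE), adjusted p = 2.11e-06, where its second probe showed 0.40. Ly6h, a membrane-anchored protein of neurons, had the largest positive difference, 3.95 ± 0.51 (SE), adjusted p = 1.30e-04, at 10.90 and 10.46 in Glast+ P7, against 7.05, 6.63 and 6.52 in Notch1+ P7. Its other probes reached down to -0.38 and the authors' own values gave -0.05, so its direction depends on the probe. The call of Sertad1 ended against the Notch1+ array of scan day 1 alone (2.62).

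Of 33 Wnt pathway genes, 6 were higher (18.2%, against 6.8% of all genes) and 1 lower, with 2 to 5 higher when 1 array was left out, that is, 2 without Glast+ array 2 and 3 without Glast+ array 1. The receptor Fzd6 measured 9.77 and 9.93 in Glast+ P7, against 11.65, 12.13 and 11.23 in Notch1+ P7 (-1.82 ± 0.35 (SE), adjusted p = 0.00261) and kept its call under each alternative. The receptors Fzd1 (1.22 ± 0.21 (SE), adjusted p = 0.00124) and Fzd7 (1.53 ± 0.34 (SE), adjusted p = 0.00696) and the ligand Ndp, norrin, which Müller glia send to retinal vessels, at 13.84 and 13.96 in Glast+ P7, against 12.03, 12.40 and 12.27 in Notch1+ P7 (1.67 ± 0.47 (SE), adjusted p = 0.0271), were higher. Under median scaling 0 Wnt genes were called higher. Fzd7 lost its call without Glast+ array 2 (1.34) and Ndp without Glast+ array 1 (1.72), Glast+ array 2 (1.61), Notch1+ array 1 (1.56) or Notch1+ array 3 (1.69). Fzd7 (1.11) and Ndp (1.35) were also not called under median scaling, Ndp (1.69) with scan day as a random block and Ndp (1.503) against the Notch1+ array of scan day 1 alone. Factors named in work on Müller glia regeneration had 5 of 30 higher (16.7%) and 1 lower, and Hippo genes 3 of 15 higher (20%) and 1 lower. With either Glast+ array left out these higher counts were 2 and 0. Sterol synthesis had 3 of 23 higher (13%) and 0 lower, and lens 2 of 13 higher (15.4%) and 0 lower. Glycolysis had 0 of 22 higher and 1 lower (4.55%, against 5.53% of all genes). Chromatin and DNA methylation had 1 of 34 higher (2.94%) and 3 lower (8.82%), and pigment epithelium and melanocytes 1 of 18 higher (5.56%) and 0 lower. No sterol gene (0) was called higher without Glast+ array 1 or under median scaling, and no lens gene (0) with either Glast+ array left out. Their medians lay between -0.06 and 0.35.

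**Figure D4:**
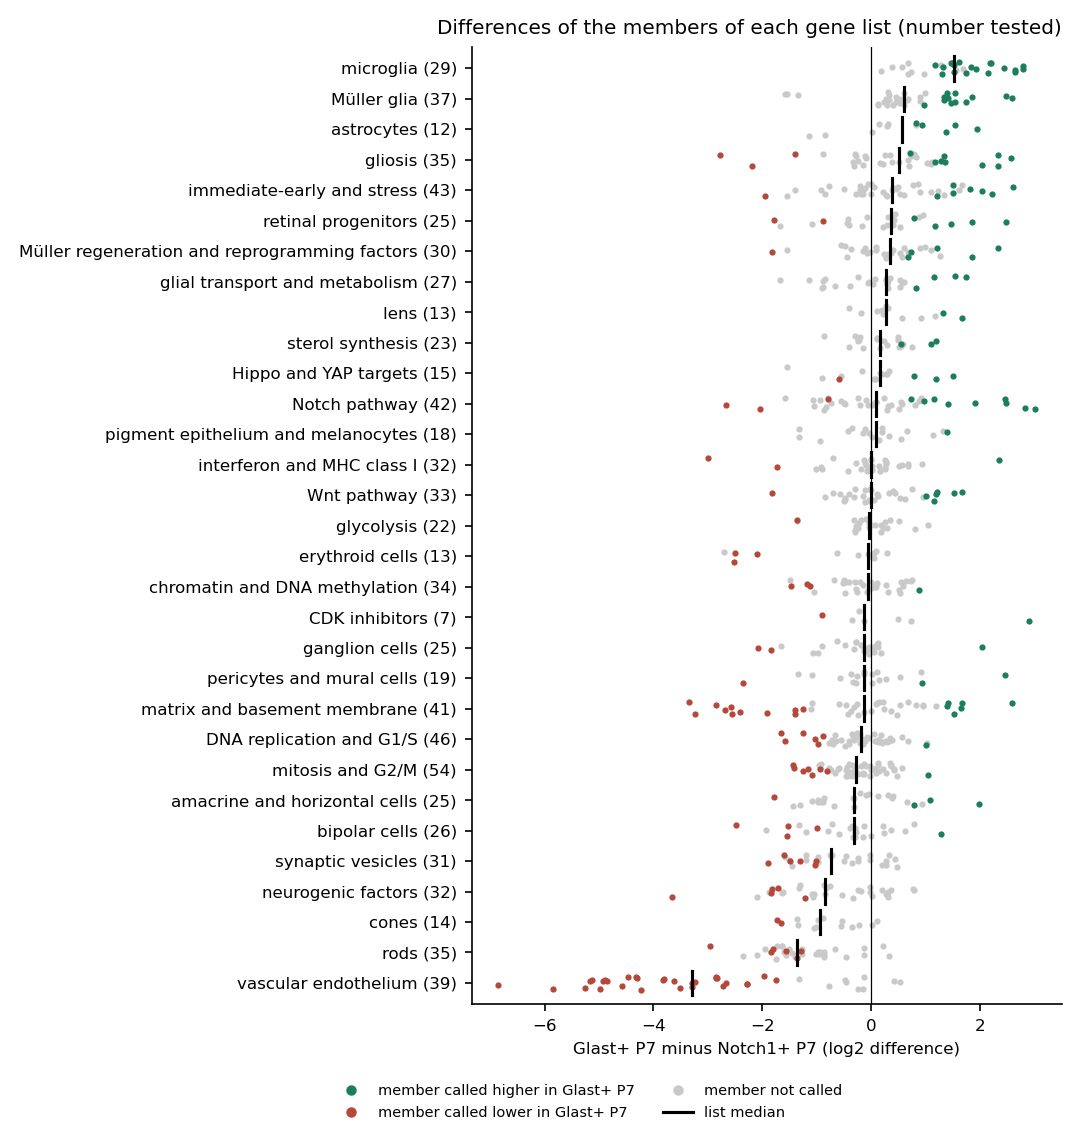
Difference between Glast+ P7 and Notch1+ P7 cells (x axis, log2) of each tested member of 31 gene lists (rows, number tested in brackets, sorted by median). Green points are members called higher in Glast+ P7 cells, red points members called lower, grey points members not called (spread vertically for legibility), and black bars list medians. Endothelial genes lie farthest left, with a median of -3.29, and microglial genes farthest right, with a median of 1.53.

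At P14 the sorts differed in more genes: 4871 of 12601 (38.7%) were called between Glast+ P14 and Notch1+ P14 cells, 2536 higher (20.1%) and 2335 lower (18.5%). All Glast+ P14 arrays were scanned on scan day 3 and all Notch1+ P14 arrays on scan days 1 and 2, so the sorts cannot be told apart from the scan days there either. The P7 and P14 comparisons share no array. Across genes the Glast+ P14 arrays correlated at r = 0.968 to 0.987 and the Notch1+ P14 arrays at 0.936 to 0.976. Notch1+ P14 array 3 correlated at 0.953 and 0.936 with the others of its group, and at 0.951 to 0.966 with the Notch1+ P7 arrays. The Notch1+ P14 group mean therefore covers unlike arrays, with an SD of 2.04 for Gadd45g and 1.95 for Hes5. Of the 1554 genes called at P7, 975 (62.7%) were called in the same direction at P14, which is 20.0% of the P14 calls, 57 in the opposite direction and 522 were not called there. A test of the difference between both ages (P7 sort difference minus P14 sort difference) called 1923 genes (15.3%), 899 more positive (7.13%) and 1024 more negative (8.13%) at P7. The count ranged from 983 to 3028 when 1 array of the 4 groups was left out, the highest without Notch1+ P14 replicate 3 and the lowest without Glast+ P7 replicate 2, and was 782 under median scaling.

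The endothelial and microglial lists kept their direction at P14. There 37 of 39 endothelial genes were lower (median -4.25), against 18.5% of all genes. Of the microglial genes 29 of 29 were higher (median 3.43), against 20.1% of all genes. For 14 of the 29 microglial genes the difference was called smaller at P7 than at P14, where 8.13% of all genes were called more negative at P7. Few mitotic genes were called at P7 and most at P14. At P14, 44 of 54 were lower in Glast+ cells (median -1.68), against 7 at P7, and the difference between ages was called for 29 as more positive at P7. Over all genes these shares were 18.5%, 5.53% and 7.13%. Cdk1 differed by -0.35 at P7 and -2.70 at P14 (2.35 ± 0.49, adjusted p = 0.00407 for P7 minus P14), and Top2a by -0.28 and -2.53 (2.25 ± 0.30, adjusted p = 1.64e-04). Müller glia genes had 29 of 37 higher at P14, against 20.1% of all genes. Glul (1.11), Rlbp1 (1.82) and Aqp4 (4.45), which were not called at P7, were higher at P14. The difference between ages was called for Aqp4 (-4.16 ± 0.48, adjusted p = 4.53e-05) and not for Glul (-0.50 ± 0.55, adjusted p = 0.622) or Rlbp1 (-1.27 ± 0.72, adjusted p = 0.269).

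The sort difference of Notch targets was not the same at both ages. Hey1 differed by 3.02 at P7 and -0.24 at P14, where it was not called (3.26 ± 0.49, adjusted p = 3.95e-04 for P7 minus P14), and Heyl by 2.47 and -2.81 (5.28 ± 0.64, adjusted p = 6.85e-05), with calls in opposite directions. Heyl is also on the mural cell list. At P14, 9 of its 19 genes were lower, Heyl among them, against 18.5% of all genes, and 1 was higher (median -1.19). The difference between ages was called more positive at P7 for 8 of the 19, against 7.13% of all genes. The part of mural cells in the change of Heyl was not tested. Hes1, not called at P7, differed by 0.31 at P7 and 1.72 at P14 (-1.41 ± 0.35, adjusted p = 0.0124). For Hes5, 2.48 at P7 and 3.90 at P14 and called at both, the difference between ages was not called (adjusted p = 0.33). Fhl2 (3.84 and -1.20, 5.04 ± 0.41, adjusted p = 3.19e-06), Nes (1.18 and -3.37, 4.55 ± 0.39, adjusted p = 4.15e-06) and Gadd45g (-3.66 and 2.66, -6.32 ± 1.11, adjusted p = 0.00122) were also called in opposite directions. Cldn5 was lower at both ages, by less at P14 (-5.84 and -2.38, -3.47 ± 0.38, adjusted p = 3.02e-05), and Ecrg4, a secreted precursor peptide, was higher at both, by more at P14 (1.23 and 4.74, -3.51 ± 0.35, adjusted p = 1.42e-05). For single genes the alternatives were tried on the P7 sort difference only, so the calls between ages were not tested under them. Of the P7 calls, that of Ecrg4 was lost without Glast+ array 2 (1.06) and that of Gadd45g without Glast+ array 1 (-3.38). The P7 call of Nes was lost without Glast+ array 1 (1.14), Glast+ array 2 (1.23) or Notch1+ array 1 (1.04). At P7, Nes (0.81) was also not called under median scaling and Ecrg4 (1.28) and Gadd45g (-3.70) against the Notch1+ array of scan day 1 alone.

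**Figure D5:**
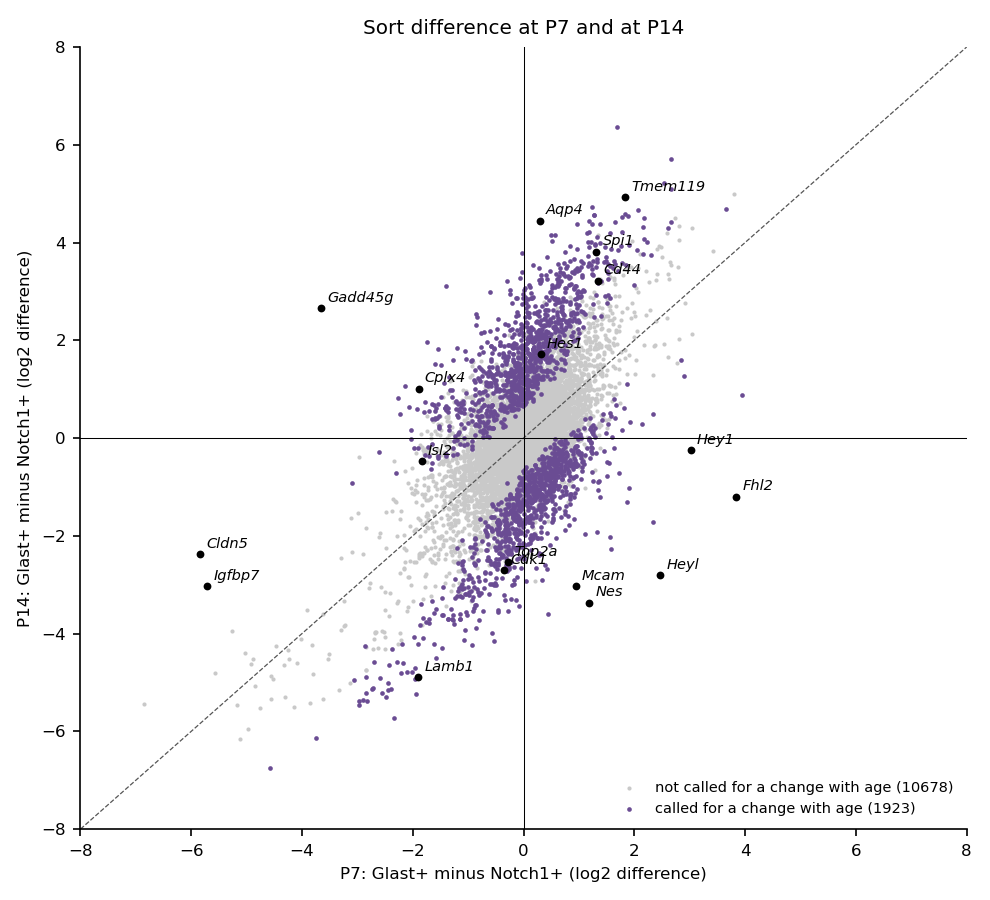
Difference between Glast+ and Notch1+ cells at P7 (x axis, log2) and at P14 (y axis, log2) for each of 12601 genes. Purple points are genes whose difference was called to change between the ages (1923), grey points the others (10678), black points named genes, and the dashed line marks equal differences. Hey1, Heyl and Fhl2 lie to the lower right, Gadd45g to the upper left and Cldn5 to the far left.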

How the data were processed

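Per the labels' protocols, RNA of bead-captured cells was amplified, labelled with biotin and hybridised to 1-colour mouse long-oligonucleotide arrays. Per the file headers, GenePix Pro 4.1.1.4 read the images, and the deposited intensity of each spot (median, with its local background) was not normalized. The authors' own value table, on an intensity scale, equals spot median minus background median, times 1 factor per array, floored at 1. Its column medians were 57.8 and 54.5 for Glast+ P7 and 35.6, 46.8 and 38.6 for Notch1+ P7, and how the factor was set is not given in the sources used here. Coordinates and names are from RefSeq tables (GRCm38.p6), which named 22933 probes and left 11379 unnamed.

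With limma 3.58.1 in R 4.3.3, intensities were background-corrected (normexp, offset 50), then quantile normalized, then turned into log2 values. A probe stayed in when at least 1 group had it found on all its arrays (25242, after 28 with a bad flag were left out), the brightest for each gene. A model of 8 group means over 21 arrays (13 residual degrees of freedom) was tested with eBayes and Benjamini-Hochberg adjustment at 0.05. P-values measure the spread between these arrays. The test was also run on simulated arrays with these group sizes, with an outcome not reported here. A probe not found on any array of a group has only a bound there, taken from the lowest signals found. Left out arrays, other scalings, background corrections, filters, the authors' values after log2(value + 50), scan-day terms and the replicate number as a block were tried.

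Named are 12 preset genes, the 12 genes with the largest non-overlapping called difference in each direction, defining members and up to 6 called members per direction of 31 lists, and the 3 with the largest called difference between ages in each direction whose P7 difference was also called; some of these are not reported here. The genes and lists were chosen with earlier results of these data known.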

Additional observations from a re-analysis of the deposited data

Results flagged for a closer look

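Of the 137 genes described above, 51 were picked out: limma called their difference between ages, as it did for 15.3% of all genes. Their sort difference at P7 was not that at P14. Values in brackets are the P7 difference minus the P14 difference (log2). For 12 of them the 2 differences had opposite signs: Gadd45g (-6.32), Jun (-2.63), Pde6b (-2.53), Meis2 (-2.52), Fos (-1.81), Fzd1 (1.32), Mcm2 (2.29), Hey1 (3.26), Mcam (3.97), Nes (4.55), Fhl2 (5.04) and Heyl (5.28). A positive value means that Glast+ cells stood higher relative to Notch1+ cells at P7 than at P14. The 137 genes were named in part for large differences at P7 or between ages, so their share cannot be set against that of all genes.

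For these microglial genes, with positive differences at both ages, the values were negative: Tmem119 (-3.10), Spi1 (-2.50), Olfml3 (-1.90), P2ry12 (-1.79), Selplg (-1.77) and Cd53 (-1.60). P2ry12 was not called at P7. Glial genes with a negative value were Aqp4 (-4.16), Ecrg4 (-3.51), Agt (-2.61), Cd44 (-1.88) and S100b (-1.08). Stress and cytokine response genes gave Socs3 (-1.81), Atf3 (-1.78), Tnfrsf12a (1.85) and Cd109 (2.42), where Cd109 was lower in Glast+ cells at both ages. Of Notch pathway members with the same sign at both ages, Hes1 (-1.41) had a negative value and Maml1 (1.06), Hey2 (1.23) and Nrarp (1.60) positive ones.

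Vessel and matrix genes gave Cldn5 (-3.47), Igfbp7 (-2.68), Lama4 (2.05) and Lamb1 (2.99), and mural cell genes Cspg4 (1.56), Rgs5 (2.13), Kcnj8 (3.25) and Higd1b (3.39). Cell cycle genes gave Cdk4 (1.19), Ccnb1 (1.49), Plk1 (1.64), Tk1 (1.92), Top2a (2.25) and Cdk1 (2.35). The remaining genes were Fzd7 (-1.41), Isl2 (-1.36), Bcl6 (-1.02), Lrrtm2 (1.63), Fzd6 (1.85) and Ly6h (3.06). The sorts cannot be told apart from the scan days at either age.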

How the results depend on the processing

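The P7 count of 1554 called genes stayed within 1.5 times of itself under most alternatives (1243 under median scaling to 2163 in the authors' values). It was 952 with a 2-fold minimum added, 919 with scan day as a random block, 835 against the Notch1+ array of scan day 1 alone, and 552 to 1339 with 1 array left out, the lowest without Glast+ array 2; 705 were called without Glast+ array 1 and 1000 without Notch1+ array 1. With the replicate number as a block 1528 genes were called. The labels give no pairing of the arrays beyond that number. Deviations of equally numbered arrays from their group means correlated at 0.283 and 0.00247. With only 2 Glast+ arrays, their deviations mirror each other, so these correlations cannot decide whether arrays were paired. The P14 count (4871) ranged from 4086 to 5351. The count for a difference between ages (1923) was 782 under median scaling and 983 to 3028 with 1 array left out; it was 1164 without Glast+ P7 replicate 1. Of 99 genes in the text called at P7, 52 kept that call under every alternative in which they were tested and 46 lost it under at least 1. Of the 99, 2 changed sign under at least 1, Ly6h and Snw1, and Snw1 is counted among the 46 too. The cause was not tested.

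Signs turned under median scaling for Ccnd1 (0.374), Hes1 (-0.00291), Fgf15 (-0.133) and Cspg4 (0.115). They turned under cyclic loess for Ccnd1 (0.411) and Kcnj8 (0.0124), and in the authors' values for Ccnd1 (1.003), Ly6h (-0.0488), Cdkn1c (0.207), Cspg4 (0.177), Kcnj8 (0.0157) and Fos (0.602). With the mean of a gene's probes Ccnd1 (0.166) and Snw1 (0.226) turned. Against Notch1+ arrays of scan day 1 alone Pax2 (-0.200) turned, and against those of scan day 2 alone, which is also the value without Notch1+ array 2, Cdkn1a (0.138). With 1 array left out, Hes1 ranged from -0.0125 to 0.63 and Pde6b from -1.98 to 0.0703, each turning without Glast+ array 2, and Cdkn1a from -0.79 to 0.14. Except Ly6h and Snw1, none of these genes was called.

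Signal over background differed too: probes at or below background were more frequent on the Notch1+ P7 arrays, and the dimmest genes were rarely called. The part of background in the calls was not tested.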
